A study of Mus musculus with 6 samples.

Results

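Cytochromes P450 and UDP-glucuronosyltransferases were examined as the genes of the authors' deposited table whose symbol is Cyp or Ugt followed by a digit. These were 34 of 690 listed genes, 28 of them P450 genes and 6 UDP-glucuronosyltransferase genes. The symbol was given for 30 of the 34. The other 4 (Cyp2c37, Cyp2d10, Cyp2d11 and Cyp3a41b) carried no symbol and were identified by their title and Entrez number. RNA was sequenced from enteroids, organoids grown from small-intestinal crypts of C57BL/6J mice without necrotizing enterocolitis, which all went through 4 days of differentiation medium. There followed 24 hours with recombinant mouse IL-22 for 2 wells of 1 mouse, while 4 wells of 2 mice stayed untreated as controls, with 1 library per well. Dose and age are unsettled, since 2 ng/ml of IL-22 stands in the labels but 100 ng in the table's header, and 6 weeks among the sample labels but 8 weeks for adults or 7 days for newborns in the protocol. Wells of 1 mouse are called technical replicates, and the IL-22 mouse may or may not be one of the control mice, so p-values measure the spread between wells and not between treated animals.

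P450 enzymes are haem proteins of the endoplasmic reticulum that insert oxygen into drugs, steroids, bile acids and fatty acids with electrons from P450 reductase. UDP-glucuronosyltransferases join glucuronic acid to such products, to bilirubin and to hormones, which makes them soluble enough to be pumped out. In the small intestine both families sit mainly in absorptive enterocytes of the villus, where they form a first barrier to swallowed compounds. Many of their genes stand in clusters of recent duplicates, and nuclear receptors such as PXR, PPARα and HNF4 are known to regulate several of them in liver and gut.

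The members come from a few such clusters. By the chromosomes and gene order of RefSeq GRCm38.p6, the 9 Cyp2c genes lie on chromosome 19 and the 7 Cyp2d genes on chromosome 15. The 6 Cyp3a genes and the 5 Ugt2 genes lie on chromosome 5. Of the protein-coding genes of each family in RefSeq, 9 of 15 Cyp2c genes, 7 of 8 Cyp2d genes, 6 of 9 Cyp3a genes, 3 of 20 Cyp4 genes and 4 of 7 Ugt2b genes were listed. None of the 22 P450 genes outside the Cyp2, Cyp3 and Cyp4 families was listed, a set that includes the bile acid gene Cyp7a1 and the dioxin-responsive Cyp1a1. Genes that were not listed were not analysed here, and their absence does not show that they were unchanged.

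Promoters of 29 members were found in the RefSeq table (GRCm38.p6, 250 bases before to 50 bases after the transcription start), and 6 are shown: 3 that hold the HNF4-type letters named next (Cyp3a11, Cyp2c40 and Cyp2c70), a Cyp3a relative without them (Cyp3a44), and the Cyp2j pair of opposite direction. Capitals mark CAAAGTCCA, letters that fit an HNF4-type element, and TTCNNNGAA, letters that fit a STAT element. All 6 are written 5′ to 3′ on the minus strand, which is the strand of the gene. Cyp3a11 (chr5:145879805-145880104) and Cyp3a44 (chr5:145805825-145806124) are cluster neighbours on chromosome 5. Cyp2c40 (chr19:39812765-39813064) and Cyp2c70 (chr19:40187237-40187536) are members of the Cyp2c cluster. Cyp2j11 (chr4:96348631-96348930), which was higher with IL-22, and Cyp2j6 (chr4:96553602-96553901), which was lower, are relatives on chromosome 4.
Cyp3a11: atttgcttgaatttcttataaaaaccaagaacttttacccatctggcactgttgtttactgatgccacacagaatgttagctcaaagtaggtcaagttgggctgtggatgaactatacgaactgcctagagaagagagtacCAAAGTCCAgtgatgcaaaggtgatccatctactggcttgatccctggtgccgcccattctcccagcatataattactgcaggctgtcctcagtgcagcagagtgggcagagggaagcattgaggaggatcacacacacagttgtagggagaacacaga
Cyp3a44: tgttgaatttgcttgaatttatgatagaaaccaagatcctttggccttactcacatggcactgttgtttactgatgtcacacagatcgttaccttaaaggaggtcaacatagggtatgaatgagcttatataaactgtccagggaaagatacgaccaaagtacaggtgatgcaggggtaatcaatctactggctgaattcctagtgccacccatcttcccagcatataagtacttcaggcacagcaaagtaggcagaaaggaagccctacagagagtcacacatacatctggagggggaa
Cyp2c40: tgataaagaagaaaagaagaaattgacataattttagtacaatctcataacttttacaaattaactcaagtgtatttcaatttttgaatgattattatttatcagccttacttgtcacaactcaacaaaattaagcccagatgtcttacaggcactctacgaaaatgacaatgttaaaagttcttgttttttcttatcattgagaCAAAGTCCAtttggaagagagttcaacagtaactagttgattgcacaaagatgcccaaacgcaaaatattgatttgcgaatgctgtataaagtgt
Cyp2c70: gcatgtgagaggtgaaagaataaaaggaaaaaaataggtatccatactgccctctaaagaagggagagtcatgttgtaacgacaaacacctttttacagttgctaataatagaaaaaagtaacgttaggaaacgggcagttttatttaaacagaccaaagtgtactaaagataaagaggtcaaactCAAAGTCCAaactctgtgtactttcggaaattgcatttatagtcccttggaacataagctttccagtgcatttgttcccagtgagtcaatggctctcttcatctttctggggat
Cyp2j11: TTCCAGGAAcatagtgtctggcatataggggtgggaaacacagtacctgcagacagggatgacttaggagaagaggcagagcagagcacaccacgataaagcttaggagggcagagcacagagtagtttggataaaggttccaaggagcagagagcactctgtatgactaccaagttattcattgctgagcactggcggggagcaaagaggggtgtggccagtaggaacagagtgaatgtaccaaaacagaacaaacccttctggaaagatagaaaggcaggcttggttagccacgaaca
Cyp2j6: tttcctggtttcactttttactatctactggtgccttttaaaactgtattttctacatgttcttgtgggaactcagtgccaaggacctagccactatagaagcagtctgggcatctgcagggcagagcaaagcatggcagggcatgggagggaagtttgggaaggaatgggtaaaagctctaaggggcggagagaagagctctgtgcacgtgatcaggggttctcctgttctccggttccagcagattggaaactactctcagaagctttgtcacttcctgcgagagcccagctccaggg

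CAAAGTCCA, searched on both strands, stood in 8 of the 29 member promoters (27.6%), in 7 of the 505 promoters of other listed genes (1.39%) and in 156 of all 32851 promoters (0.475%). The 8 were those of Cyp2c40, Cyp2c67, Cyp2c68, Cyp2c69, Cyp2c70, Cyp3a11, Cyp3a41a and Cyp3a41b. It began 109 bases before the start in Cyp3a11, 45 bases before it in Cyp2c40 and 64 bases before it in Cyp2c70. These promoters are not independent, since those of Cyp3a41a and Cyp3a41b are 97.0% identical and those of Cyp2c68 and Cyp2c69 91.1%. The promoter of Cyp3a44 does not hold these letters and is 71.2% identical to that of Cyp3a11 and 93.0% identical to that of Cyp3a41a. TTCNNNGAA stood in 3 of the 29 member promoters (10.3%), in 44 of 505 other listed promoters (8.71%) and in 8.30% of all promoters. The 3 were those of Cyp2j11, Cyp4f13 and Ugt1a6a, of which Cyp2j11 was higher with IL-22 and the others lower. A match describes letters in this window and is not a binding site.

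With IL-22, 32 of the 34 members were lower and 2 were higher. Among all 690 listed genes, 61.3% were lower and 38.7% higher. By family, 26 of 28 P450 genes and 6 of 6 UDP-glucuronosyltransferase genes were lower. Every listed gene had at least a 2-fold change, p-values up to 0.0239 and 20 or more mean reads on its higher side, so that passing the authors' test is no result about the members. The IL-22 and control libraries did not overlap in 34 of 34 members, and the same was true of all 660 listed genes with recovered reads (60.3% lower and 39.7% higher with IL-22). At a 4-fold threshold 17 of the 34 members were lower, against 13.8% of the listed genes, and 2 were higher, against 13.2%. The median change was -1.99 on the log2 scale over the members, -1.12 over all listed genes and -1.44 over the listed genes that were lower. In a family of all 21951 protein-coding genes, with the largest possible p for unlisted ones, the adjusted p of Cyp2d34 (0.00878) and Ugt1a6a (0.0476) of the lower members and Cyp2j11 (0.0022) of the higher ones was under 0.05. Of the listed genes, 7.97% were lower and 13.6% higher under this adjustment. With unequal variances 30 members were called lower and 1 higher, against 53.3% and 17.7% of the listed genes. With at least 10 mean reads in each group 29 members were called lower and 0 higher, against 54.5% and 30.9%. With 1 RPM added to both means these counts were 27 and 0, against 38.1% and 24.3%, and on the log2 scale 32 and 2, against 61.3% and 36.7%. The values adjusted over protein-coding genes are upper bounds, and an exact permutation of these wells cannot give a p under 0.0667.

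**Figure D1:**
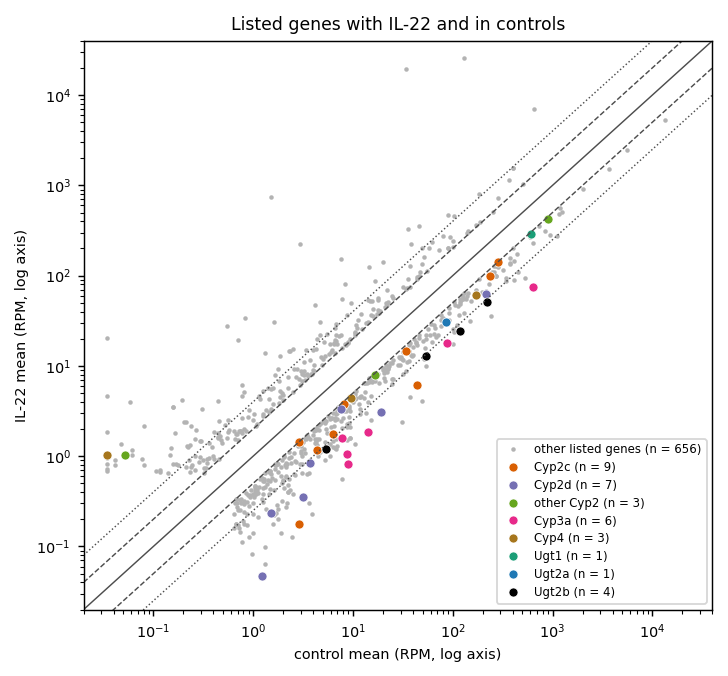
Mean level with IL-22 (RPM, y axis) against mean level in controls (RPM, x axis), both log axes, for the 690 listed genes; colours mark the members by subfamily, the solid line equality, dashed lines 2-fold and dotted lines 4-fold. The 6 Cyp3a genes and the 4 Ugt2b genes all lie below the lower 4-fold line, and 2 members at the far left lie above equality.

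Levels are reads of a gene per 1000000 reads of its library (RPM). The reads of single libraries, which the table does not print, were recovered as whole numbers from its means, SEMs and mean read numbers. They gave depths of 32500000 and 29900000 reads for the IL-22 libraries and of 36600000, 35200000, 27400000 and 22600000 reads for the controls. Libraries are named by the order of depth, since nothing links them to a mouse or well. A single set of reads fitted for 34 of 34 members with IL-22 and for 23 of 34 in controls. For the other 11 members the control values are given as the authors' mean ± SEM with the range that any control library could have. The summed level of the 28 P450 genes was 935.1 RPM with IL-22 and 2735 RPM in controls, and that of the 6 UDP-glucuronosyltransferase genes was 410.9 RPM with IL-22 and 1093 RPM in controls. These sums were 2.92-fold and 2.66-fold lower with IL-22, beside 2.56-fold for the sum over all listed genes that were lower. Over all 690 listed genes the sum with IL-22 was 1.53 times that in controls. The P450 sum was 912.4 RPM in the deeper and 957.8 RPM in the shallower IL-22 library, and no control library could lie outside 2239 to 3230 RPM. In this bulk RNA, fewer cells of a type and less RNA per cell cannot be told apart.

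**Figure D2:**
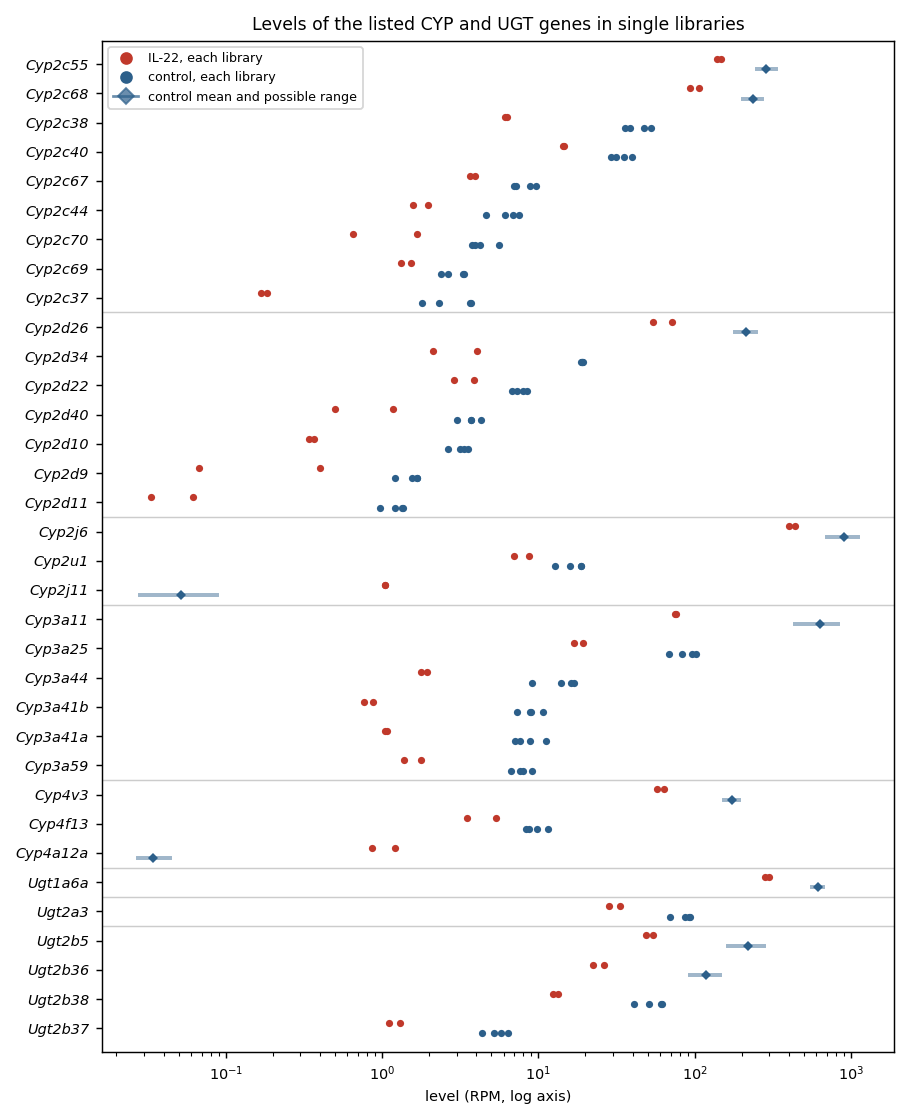
Level of each member (RPM, log axis) in the 2 IL-22 libraries (red, upper row of each gene) and the 4 control libraries (blue, lower row), grouped by subfamily. A diamond with a bar stands for the control mean and the range that a control library could have where single values were not unique. All members but Cyp2j11 and Cyp4a12a have both red points left of the blue ones.

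The Cyp3a genes encode the P450s that oxidize the widest range of drugs, and Cyp3a11 is the mouse counterpart of the main drug-oxidizing P450 of the human gut. All 6 listed Cyp3a genes were more than 4-fold lower, by 4.82-fold to 10.9-fold per the authors' deposited table. Cyp3a11 (Entrez 13112) stood at 75.6 RPM in the deeper and 74.6 RPM in the shallower IL-22 library. In controls it averaged 630.5 ± 66.2 RPM (SEM, n = 4), with every control library between 436.1 and 829.0 RPM. The IL-22 libraries thus lay close together and far under any possible control value. Cyp3a11 had an 8.40-fold lower mean with IL-22 per the authors' deposited table (authors' adjusted p = 0.00755, log2 ratio -3.07 ± 0.15 SE). Cyp3a25 (Entrez 56388) had 16.9 and 19.3 RPM with IL-22, against 96.7, 83.4, 101.2 and 68.3 RPM in the control libraries from the deepest to the shallowest. Its log2 ratio was -2.27 ± 0.16, less extreme than that of Cyp3a11 by more than both standard errors together.

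The most extreme ratio in the cluster was that of Cyp3a41b (Entrez 100041375). It had 25 and 26 reads (0.77 and 0.87 RPM) with IL-22, against 330, 312, 294 and 164 reads (9.02, 8.85, 10.7 and 7.24 RPM) in controls, and had a 10.9-fold lower mean with IL-22 per the authors' deposited table (authors' adjusted p = 0.00374). Its near copy Cyp3a41a had 1.08 and 1.04 RPM with IL-22, against 8.86, 7.58, 11.2 and 7.06 RPM in controls. No more than 4.13% of Cyp3a41b and 0.148% of Cyp3a41a is unique to them (31-base words of GENCODE M21 transcripts found in no other gene), so the division of reads between them is uncertain. Cyp3a44 had 1.79 and 1.94 RPM with IL-22, against 16.95, 13.9, 16.2 and 9.10 RPM in controls. Cyp3a59, which shares 43.5% of its sequence with Cyp3a25, had 1.39 and 1.77 RPM with IL-22, against 7.93, 7.66, 9.08 and 6.67 RPM in controls. The shallowest control library held the lowest value of all 5 Cyp3a genes with a single fitting set of control reads, among them Cyp3a41a and Cyp3a41b.

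The Cyp2c genes encode P450s of drugs and of arachidonic acid, several of which make epoxy and hydroxy fatty acids in mice. All 9 were lower, with a median of 2.35-fold and a range of 2.01-fold to 16.3-fold in the authors' deposited table. Cyp2c55 (Entrez 72082) was the highest of them, also per length, at 138.9 and 146.6 RPM with IL-22. Its controls averaged 287.1 ± 15.4 RPM (SEM, n = 4), with every library between 250.5 and 329.3 RPM. It had a 2.01-fold lower mean with IL-22 per the authors' deposited table (authors' adjusted p = 0.0059), just past the 2-fold threshold. Cyp2c68 had 93.3 and 106.2 RPM with IL-22, against 234.5 ± 11.1 RPM in controls. Of its sequence 38.0% is unique to it, and 53.6% is shared with Cyp2c40, its neighbour in the cluster. Cyp2c67 and Cyp2c69 also share most with Cyp2c40 (55.5% and 57.7%), and Cyp2c40 shares most with Cyp2c69 (46.6%).

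Cyp2c38 and Cyp2c37 stood apart from these by size. Cyp2c38, an arachidonic acid epoxygenase gene, had 6.10 and 6.33 RPM with IL-22, against 47.6, 38.8, 52.4 and 35.6 RPM in controls, a log2 ratio of -2.81 ± 0.13. Cyp2c37 (Entrez 13096) had 6 and 5 reads with IL-22 (0.185 and 0.167 RPM), against 133, 81, 102 and 41 reads in controls (3.64, 2.30, 3.72 and 1.81 RPM). It had a 16.3-fold lower mean with IL-22 per the authors' deposited table (authors' adjusted p = 0.0209), and the ratio of its reads per depth was 0.0602, with a 95% counting interval of 0.0298 to 0.109. In controls it split into a higher pair (the deepest and the third) and a lower pair (the second and the shallowest). Cyp2c40, which had 14.3 and 14.7 RPM with IL-22, against 35.5, 31.5, 39.9 and 29.1 RPM in controls, moved by -1.23 ± 0.10 on the log2 scale. Cyp2c67 and Cyp2c69, at 3.81 and 1.43 RPM with IL-22, against 8.12 and 2.91 RPM in controls, moved by -1.09 and -1.02.

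Cyp2c44 and Cyp2c70 share no 31-base word with another gene. Cyp2c44, an arachidonic acid epoxygenase gene named Cyp2c23 in RefSeq, had 1.97 and 1.57 RPM with IL-22, against 6.89, 6.10, 7.48 and 4.59 RPM in controls. Cyp2c70, which makes muricholic bile acids in mouse liver, had 0.647 and 1.67 RPM with IL-22 (21 and 50 reads), against 3.94, 4.26, 3.76 and 5.56 RPM in controls. The IL-22 libraries differed for Cyp2c70 beyond counting error, with 0.386 times as much in the deeper as in the shallower library (95% interval 0.22 to 0.655).

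The Cyp2d genes are the mouse relatives of human CYP2D6, which oxidizes many basic drugs. All 7 were lower, with a median of 6.18-fold and a range of 2.27-fold to 25.7-fold in the authors' deposited table. Cyp2d26 (Entrez 76279) carried most of their reads, at 72.0 and 53.9 RPM with IL-22. The controls averaged 214.2 ± 11.7 RPM (SEM, n = 4), with every library between 179.7 and 247.7 RPM. It had a 3.40-fold lower mean with IL-22 per the authors' deposited table (authors' adjusted p = 0.00319). Cyp2d11 (Entrez 545123) had 2 and 1 reads with IL-22 (0.0616 and 0.0335 RPM), against 44, 48, 37 and 22 reads in controls (1.20, 1.36, 1.35 and 0.971 RPM). It had a 25.7-fold lower mean with IL-22 per the authors' deposited table (authors' adjusted p = 0.003). This size rests on 3 IL-22 reads, and the ratio of its reads per depth was 0.0388, with a 95% counting interval of 0.00792 to 0.116. Of the sequence of Cyp2d11, 41.5% is found in no other gene and 38.3% is shared with Cyp2d10. The division of reads between these genes is therefore uncertain.

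Cyp2d34 had 4.03 and 2.11 RPM with IL-22, against 18.9, 19.0, 18.7 and 19.3 RPM in controls, the tightest control values of the members relative to their mean. Its SEM was 0.963 RPM with IL-22 and 0.103 RPM in controls, and with unequal variances it no longer passed. Cyp2d10, with 11 and 11 reads with IL-22 (0.339 and 0.368 RPM), against 3.36, 3.15, 3.54 and 2.65 RPM in controls, had an 8.98-fold lower mean per the authors' deposited table. Cyp2d9, a steroid hydroxylase gene of male mouse liver, had 13 and 2 reads with IL-22 (0.40 and 0.0669 RPM), against 1.67, 1.56, 1.20 and 1.68 RPM in controls. In both Cyp2d9 and the next gene the deeper IL-22 library was the higher one. Cyp2d40 had 1.17 and 0.502 RPM with IL-22, against 4.32, 3.72, 3.72 and 3.002 RPM in controls. Cyp2d22, which like Cyp2d26 shares little sequence with other genes, had 3.85 and 2.88 RPM with IL-22, against 7.98, 7.32, 6.75 and 8.43 RPM in controls.

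The Cyp2d genes also differed between the IL-22 libraries. Of the 7, 6 were higher in the deeper library, 5 of them with a 95% counting interval above 1, and the median ratio of deeper over shallower was 1.84. The ratio was 1.34 for Cyp2d26 (1.25 to 1.42), 1.91 for Cyp2d34 (1.41 to 2.63) and 2.33 for Cyp2d40 (1.25 to 4.56). The Cyp2c genes had a median of 0.948, the Cyp3a genes 0.903 and the Ugt2b genes 0.881, with no interval above 1. Intervals below 1 were found for 3 Cyp2c genes, 1 Cyp3a gene and 2 Ugt2b genes. Over all 34 members 7 intervals lay above 1, among them those of Cyp4f13 and Cyp2u1, and 10 lay below. Among 654 other listed genes the median was 1.05, with 163 intervals above 1 and 90 below. The 5 listed enterocyte markers also summed higher in the deeper library, at 920.9 RPM, against 657.3 RPM in the shallower. Most of that difference was Apoa4, at 470.1 RPM in the deeper and 236.3 RPM in the shallower library. Alpi (132.0 and 89.4 RPM) and Treh (15.4 and 10.8 RPM) were also higher in the deeper one. Fabp2 (301.0 and 318.4 RPM) and Lct (2.37 and 2.41 RPM) were slightly lower there. The part of these markers in the difference between the libraries was not tested.

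**Figure D3:**
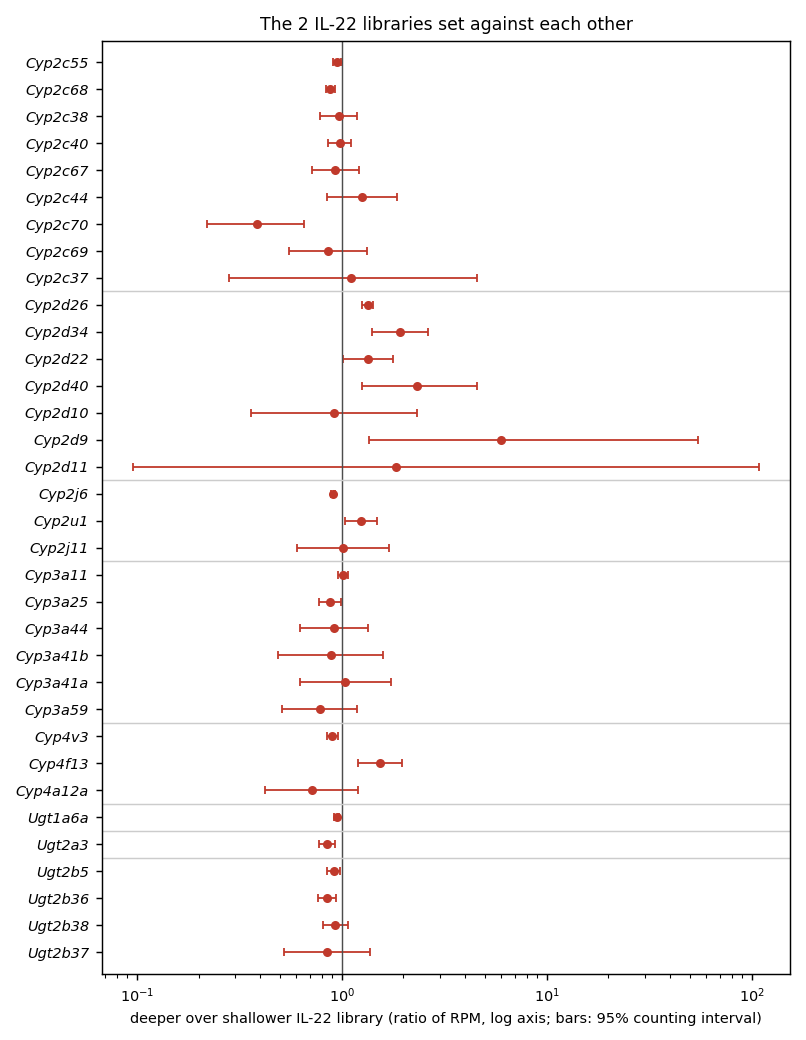
Level in the deeper over that in the shallower IL-22 library (x axis, ratio of RPM, log axis) for each of the 34 members, with 95% counting intervals. The Cyp2d genes lie right of 1 except Cyp2d10, and Cyp2c70 lies left at 0.386.

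The other Cyp2 genes went both ways. Cyp2j6 (Entrez 13110), of the subfamily that makes epoxides of arachidonic acid, had 399.2 and 439 RPM with IL-22. The control mean was 904.6 ± 69.7 RPM (SEM, n = 4), with every library between 698.4 and 1113 RPM. It had a 2.16-fold lower mean with IL-22 per the authors' deposited table (authors' adjusted p = 0.0122). It held 44.8% of the summed P450 reads with IL-22 and 33.1% in controls, while Cyp3a11 held 8.03% with IL-22 and 23.1% in controls. Cyp2u1, a fatty acid hydroxylase gene, had 8.72 and 7.03 RPM with IL-22, against 18.8, 18.6, 16.0 and 12.8 RPM in controls.

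Cyp2j11 (Entrez 100066), a relative of Cyp2j6, was higher. It had 34 and 31 reads with IL-22 (1.05 and 1.04 RPM), against 5 reads in all controls together. Of these, 2 lay in the deepest and 2 in the shallowest control library, and the fifth could not be placed in one of the remaining pair. Its mean was 20.1-fold higher per the authors' deposited table (authors' adjusted p = 6.9e-05), with a library of 0 reads given the value of 1 read. The ratio of its reads per depth was 25.4, with a 95% counting interval of 10.4 to 80.9.

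The Cyp4 genes encode fatty acid hydroxylases. Cyp4v3 (Entrez 102294), the mouse counterpart of the human gene CYP4V2 that is mutated in a crystalline retinal dystrophy, had 57.4 and 63.9 RPM with IL-22. Its control mean was 172.4 ± 6.99 RPM (SEM, n = 4), with every library between 152.9 and 191.9 RPM. It had a 2.84-fold lower mean with IL-22 per the authors' deposited table (authors' adjusted p = 0.00192). Cyp4f13 had 5.39 and 3.51 RPM with IL-22, against 11.5, 9.82, 8.68 and 8.30 RPM in controls, and no longer passed with unequal variances. Cyp4a12a (Entrez 277753), which encodes an arachidonic acid hydroxylase of the mouse kidney, was higher, with 28 and 36 reads with IL-22 (0.862 and 1.20 RPM), against 1 read in all controls together. It had a 30.3-fold higher mean with IL-22 per the authors' deposited table (authors' adjusted p = 0.00239), and did not pass with unequal variances. The ratio of its reads per depth was 125.1, with a 95% counting interval of 21.7 to 5019. Of its sequence, 62.2% is shared with its neighbour Cyp4a12b, which was not listed.

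All 6 UDP-glucuronosyltransferase genes were lower, the 5 Ugt2 genes with log2 ratios of -1.47 and below and Ugt1a6a with -1.07 ± 0.058. Ugt1a6a (Entrez 94284), which encodes an enzyme for planar phenols, had 282.3 and 298.6 RPM with IL-22. Its level in controls was 610.3 ± 17.8 RPM (SEM, n = 4), with every library between 559.2 and 663.4 RPM. It had a 2.10-fold lower mean with IL-22 per the authors' deposited table (authors' adjusted p = 0.0015). The genes of the Ugt1 locus share their last exons, and 47.0% of the sequence of Ugt1a6a is found in no other gene. The listed reads may therefore include those of other Ugt1a transcripts.

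The 4 Ugt2b genes, whose enzymes act on steroids and other lipids, were lower by 4.17-fold to 4.84-fold per the authors' deposited table, the narrowest range of any subfamily with more than 3 members. Ugt2b5 (Entrez 22238) had 49.0 and 53.7 RPM with IL-22. The control mean of Ugt2b5 was 220.6 ± 19.4 RPM (SEM, n = 4), with every library between 163.4 and 278.1 RPM. The authors' adjusted p in the authors' deposited table was 0.00688. Ugt2b36 (Entrez 231396), the most changed, had 22.3 and 26.4 RPM with IL-22. Its control mean was 117.8 ± 9.18 RPM (SEM, n = 4), with every library between 92.7 and 144.1 RPM. The authors' deposited table gives it an adjusted p of 0.00486. Ugt2b38 had 12.4 and 13.3 RPM with IL-22, against 61.02, 51.1, 61.5 and 40.8 RPM in controls. Ugt2b37 had 1.11 and 1.31 RPM with IL-22, against 6.34, 5.22, 5.76 and 4.37 RPM in controls. Ugt2b5 and Ugt2b38 share 44.9% of the sequence of Ugt2b5, and Ugt2b37 shares 25.9% of its sequence with Ugt2b5. The division of reads between these genes is therefore uncertain, and with it how alike their ratios are. Of the sequence of Ugt2b36, 88.0% is found in no other gene. Ugt2a3 had 28.2 and 33.3 RPM with IL-22, against 93.6, 91.2, 86.9 and 69.5 RPM in controls, a log2 ratio of -1.47 ± 0.15.

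**Figure D4:**
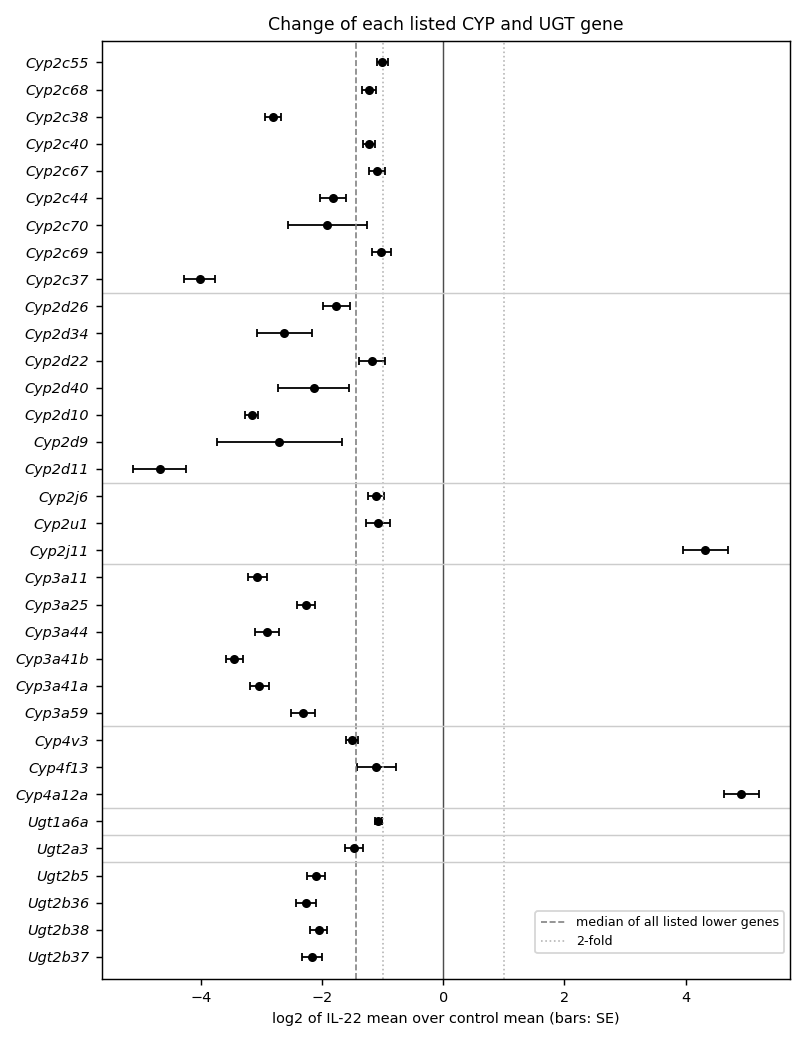
Log2 ratio of group means, IL-22 over control, for each member (x axis), with standard errors from the authors' SEMs, grouped by subfamily; the dashed line is the median of all listed lower genes and dotted lines mark 2-fold. The Cyp3a genes lie between -3.45 and -2.27 and the Ugt2b genes between -2.27 and -2.06, while Cyp2j11 and Cyp4a12a lie at 4.33 and 4.92.

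Levels of different genes were compared after division by transcript length (RPM per 1000 bases). Ugt1a6a, Cyp2j6 and Cyp2c55 were the highest with IL-22, at 126.5, 116.2 and 71.6 RPM per 1000 bases. In controls Cyp3a11, Ugt1a6a and Cyp2j6 were the highest, at 269.0, 265.7 and 250.9, and these differed by less than the SEM of Cyp3a11. Cyp3a11 stood at 32.0 RPM per 1000 bases with IL-22, the sixth of the 34 members. Summed over the P450 genes the level per length was 366.8 with IL-22 and 1113 in controls.

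The control libraries were not alike. For 23 lower members a single set of control reads fitted, and the shallowest library held the lowest value of 19 of them (82.6%). Among other lower genes with a single fitting set it held the lowest value of 164 of 327 (50.2%). The median of the members in that library was -0.30 on the log2 scale relative to the control mean, against -0.12 for the other lower genes. Exceptions were Cyp2c70, Cyp2d9, Cyp2d22 and Cyp2d34, which were highest in that library, Cyp2d9 and Cyp2d34 by little. Cyp2c55 also had its highest control value there, between 315.5 and 329.3 RPM. The enterocyte markers Lct and Treh were lowest there as well, at 24.9 and 34.2 RPM, against 31.004 to 35.5 RPM and 39.8 to 45.7 RPM in the other control libraries. For Alpi, Fabp2 and Apoa4 no single control values were in hand. The possible sum of the 5 markers was 1582 to 1813 RPM in the shallowest and 1643 to 2002 RPM in the third deepest control library, which overlap. The part of these markers in the order of the libraries was not tested. Without this library the median log2 ratio of the members was -2.06.

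**Figure D5:**
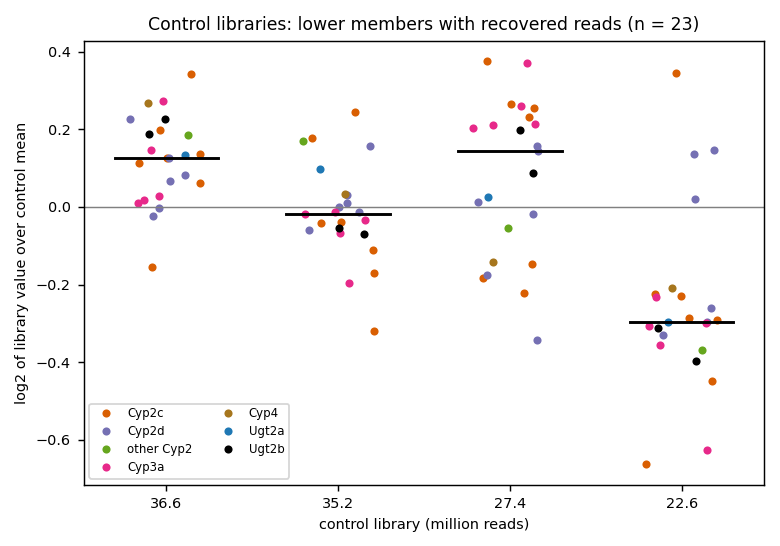
Log2 of each control library's value over the control mean (y axis) for the 23 lower members with a single fitting set of control reads. Control libraries (x axis) are labelled by depth, deepest to shallowest, colours mark the subfamily and bars are medians. The shallowest library has the lowest median, -0.30, with 4 members above 0.

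Single libraries decided some calls near the thresholds. With a control library left out, Cyp2c55 fell under 2-fold without the shallowest (1.91-fold to 1.94-fold over the possible reads), and Cyp2c69 without the deepest (1.93-fold) or the second (1.94-fold). Other cases depend on which of the possible reads holds. Cyp2c55 lay between 1.95-fold and 2.004-fold without the third deepest, and Cyp2j6 between 1.99-fold and 2.19-fold without the deepest and between 1.997-fold and 2.21-fold without the second. At the reads least favourable to a call, 30, 30, 31 and 31 members were called lower, against 54.7%, 56.8%, 55.5% and 58.3% of the genes with recovered reads, from the deepest library left out to the shallowest. With an IL-22 library left out, the remaining one was assumed to vary like the controls, and 23 of the 34 members were then called lower whichever library was left out, against 46.5% of listed genes without the deeper and 40.9% without the shallower. Cyp2c37, Cyp2c44, Cyp2c67, Cyp2c69, Cyp2j6, Cyp2u1 and Cyp3a44 lost their call whichever of the 2 was left out (adjusted p from 0.0518 to 0.0911). Cyp2c55 lost its call by the fold alone without the deeper library (1.96-fold), as did Cyp2d22 without the shallower (1.98-fold). Cyp4f13 also fell under 2-fold without the shallower library (1.78-fold), where its adjusted p failed too. Cyp2c70 was 2.62-fold lower without the deeper library and lost its call by its adjusted p alone. For 3 members 1 IL-22 library moved the ratio by over 1.5 times. The ratio of Cyp2d9 was 0.0438 without the deeper and 0.262 without the shallower library, that of Cyp2d40 0.136 and 0.317, and that of Cyp2c70 0.382 and 0.148. All of them stayed lower than the control mean.

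Partners, regulators and neighbouring enzymes were taken from lists of pathway genes. Of 21 genes of electron supply and haem, 1 was listed: Cyb5r3, the cytochrome b5 reductase gene, at 91.4 ± 11.8 RPM with IL-22 and 183.3 ± 10.1 RPM in controls (SEM). Of 38 regulators of drug and lipid metabolism, 1 was listed: Ppara, the lipid-sensing receptor gene, at 43.4 ± 1.66 RPM with IL-22 and 92.1 ± 2.16 RPM in controls. Of 12 genes of UDP-glucuronic acid supply and export, 1 was listed: Abcc2, an export pump of glucuronides, at 127.1 ± 0.19 RPM with IL-22 and 269.1 ± 7.00 RPM in controls. All 3 were lower, against 61.3% of all listed genes. P450 reductase (Por), PXR (Nr1i2), CAR (Nr1i3) and Hnf4a were not listed and were not analysed here.

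Of 40 other genes of drug-metabolizing enzymes 17 were listed, 16 lower and 1 higher, against 61.3% and 38.7% of all listed genes. Their median log2 ratio was -1.33, beside -1.12 over all listed genes and -1.44 over the listed genes that were lower. The alcohol and retinal dehydrogenases Adh1 and Aldh1a1 had the most reads, at 276.0 ± 55.8 and 284.3 ± 0.568 RPM with IL-22 and 1116 ± 65.5 and 943.9 ± 65.9 RPM in controls. Adh4 and Adh7 had 20.7 and 3.41 RPM with IL-22 and 68.1 and 9.04 RPM in controls, and Aldh1a7 had 47.0 RPM with IL-22 and 105.2 RPM in controls. The flavin monooxygenases Fmo1 and Fmo5, which like P450s oxidize drugs, had 2.62 and 59.2 RPM with IL-22 and 6.58 and 139.9 RPM in controls. The epoxide hydrolases Ephx1 and Ephx2, which open epoxides that P450s make, had 66.6 and 50.5 RPM with IL-22 and 194.6 and 119.3 RPM in controls. The carbonyl, quinone and amine enzymes Cbr1, Cbr3, Nqo1, Maob, Akr1b7, Akr1c14 and Akr1c19 were lower by 2.02-fold to 3.96-fold per the authors' deposited table. Akr1b8, an aldo-keto reductase gene, was the one that rose, at 26.3 ± 3.29 RPM with IL-22 and 10.9 ± 1.21 RPM in controls. Of the 17, Fmo1, Ephx2, Aldh1a7 and Cbr3 stayed under 0.05 in the family of protein-coding genes.

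Of 10 genes of the STAT3 response, 9 were listed and all 9 were higher with IL-22, against 38.7% of all listed genes. Among them was Socs3, the feedback inhibitor, at 80.2 ± 12.4 RPM with IL-22 and 8.32 ± 0.246 RPM in controls. This list was chosen with earlier results of these data known, so it is no independent check of the treatment. Of 13 markers of absorptive enterocytes, 5 were listed and all 5 were lower (Alpi, Fabp2, Apoa4, Lct and Treh), against 61.3% of all listed genes. The 5 markers summed to 789.1 RPM with IL-22 and 1896 RPM in controls, 2.40-fold lower. The P450 sum was 2.92-fold lower, the UDP-glucuronosyltransferase sum 2.66-fold and the sum over all listed genes that were lower 2.56-fold. Across libraries the marker sum ran from 657.3 to 920.9 RPM with IL-22 and from at least 1582 to at most 2198 RPM in controls. Of 6 hepatocyte markers, Alb and Ttr were listed and both were lower, beside the same 61.3% of listed genes. Alb and Ttr summed to 3.05 RPM with IL-22 and 11.1 RPM in controls. No marker of fibroblasts (5 genes), haematopoietic cells (5 genes) or endothelium (3 genes) was listed. The part of cell makeup in the changes of the members was not tested.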

How the data were processed

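Single-read libraries of polyadenylated RNA came from 6 enteroid wells after 15 cycles of PCR, per the labels' protocols. BWA 0.5.9 and Picard 1.58 are named in the submitters' processing notes, and the protocol names 2 types of Illumina instrument without linking them to libraries. The sources used here do not give the genome build, annotation, counting program or use of strand. Reads of a gene cannot therefore be told apart from those of an antisense partner. The authors deposited 1 table of 690 selected genes with group means and SEMs in RPM (a unit inferred from the values), mean raw read counts, the ratio (fold) of IL-22 over control, p-values and Benjamini-Hochberg adjusted p-values. The deposited p-values were recomputed from means and SEMs without a log scale, with pooled variance on 4 degrees of freedom (largest difference 1.07e-06), adjusted over the 690 listed genes alone.

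Depths and whole reads of single libraries were recovered from means, SEMs and mean reads, accepting reads that gave the printed mean and SEM within rounding plus 1e-07 (controls) or 1e-06 (IL-22) of the mean, with a library of 0 reads carrying the value of 1 read. At least 1 set of whole reads fitted for 658 of 658 control genes tried, and exactly 1 for 586; with IL-22, exactly 1 fitted for 688 of 690. The procedure was tested on simulated data. A floor of 3 reads equals 0.082 to 0.132 RPM in control libraries. Standard errors of log2 ratios were propagated from the SEMs. Counting intervals (95%, exact conditional binomial) hold counting error alone, and PCR copies of a molecule may be counted as reads. Unique sequence is the share of 31-base words that GENCODE M21 gives to no second gene, and transcript length is that of its longest coding transcript. Analyses used Python 3.11.15, NumPy 2.4.6, pandas 2.3.3, SciPy 1.17.1 and Biopython 1.88. Every member is named, with full values for the highest and the most changed gene of each subfamily and for each gene higher with IL-22. The members, lists and rules were chosen with earlier results of these data known. A marker gene that is not reported here stays out of the counts and sums of its list. Alternatives were a 4-fold threshold, other adjustments, unequal variances, a log2 scale, 1 RPM added, at least 10 mean reads, single libraries left out, members with at least 50% unique sequence, other scaling and members with a symbol. Count models were not run, since values of all genes are not in hand.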

Additional observations from a re-analysis of the deposited data

How the results depend on the processing

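The 32 members called lower were 17 past 4-fold, 2 in the family of all protein-coding genes and 21 of 22 among members with at least 50% of their sequence found in no other gene, where fewer members were counted. The count was 30 with unequal variances, 32 on the log2 scale, 27 with 1 RPM added, 29 with at least 10 mean reads in each group, 28 of 30 among members with a symbol in the table and 30 after scaling to the reads outside the listed genes. That scaling, chosen after the data were seen like the restriction to members with a symbol and the removal of Cyp3a11 or of a control library from medians and sums, raises IL-22 values by 0.0495 on the log2 scale. Leaving out 1 library gave 23 to 31 members called lower. The median log2 ratio of -1.99 was -1.42 with 1 RPM added and between -2.06 and -1.80 with 1 library left out. The summed P450 level, 0.342 of controls, was 0.282 without Cyp2j6, 0.409 without Cyp3a11 and 0.331 to 0.35 with 1 library left out. The summed UDP-glucuronosyltransferase level, 0.376 of controls, was 0.25 without Ugt1a6a, 0.27 over the 3 members with at least 50% unique sequence and 0.362 to 0.39 with 1 library left out. No direction of a member was reversed in any setting run. No paired analysis was possible because the recovered libraries carry no mouse or well. Low depth limits Cyp2d11, Cyp2j11 and Cyp4a12a, with 1 to 5 reads in one group.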
